A study of Xenopus laevis with 31 samples.

Results

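The 161 probe sets described here were higher in animal cap explants than in vegetal explants of the Xenopus laevis gastrula, lower in the egg than in the gastrula, and not clearly higher in the neurula than in the gastrula. They were chosen from 15491 probe sets (array control probe sets left out) by 3 differences between group means of log2 intensity. The animal cap mean had to exceed the vegetal mean by 1.5 or more (2.83-fold). The egg mean had to lie at least 1 (2-fold) below the stage 11 mean, and the stage 18 mean had to exceed the stage 11 mean by less than 0.75 (1.68-fold). The rule was met by 162 probe sets, and 1 of them was left out because its intensities could not be read with certainty. The array's probe sets could not be paired with genes here (0 matched a gene table), so members are given by probe set identifier, and neither the labelled tissues nor the targets of the injected reagents could be checked against named genes.

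The animal cap is the roof of the blastula. Its cells form ectoderm, the source of epidermis and of the nervous system, and cells of the vegetal pole form endoderm. The egg carries maternal RNA, the embryo's own genes become active at the midblastula stage, and a transcript that is low in the egg and high in the gastrula is therefore usually called zygotic. The equatorial belt between cap and vegetal pole forms mainly mesoderm. Nodal proteins are secreted signals that induce mesoderm and endoderm, and Mixer and Sox17 are transcription factors that act in endoderm formation.

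The study asked which transcripts mark the gastrula endoderm and how these depend on Nodal signalling, Mixer and Sox17. RNA of 31 samples was hybridised to Affymetrix Xenopus arrays, 1 array per sample. The samples were eggs (stage 1, n = 3), control embryos at stage 11, the gastrula (n = 9), and at stage 18, the neurula (n = 4), animal caps (n = 3), equatorial explants (n = 2), vegetal explants (n = 2), and embryos injected with Cerberus-Short RNA (n = 3), with a Mixer antisense morpholino oligo (n = 2) or with Sox17 antisense morpholino oligos (n = 3). All explants and injected embryos are labelled stage 11, and the caps were cut at stage 9. Injections went into the vegetal side of embryos at the 2-cell stage. Cerberus-Short, a fragment of Cerberus that blocks Nodal, was given as 1 ng of RNA. The Mixer oligo was given at 40 ng per the protocol, although the title of replicate 1 names 32 ng, and 3 oligos against Sox17 were given at 20 ng each. The stage 11 embryo samples and the injected ones each pooled about 20 embryos from a single mating and the explant samples about 50 explants. Which samples came from the same mating is not stated, so p-values measure only the spread between these samples. The labels call the control embryos control, and the title of control replicate 8 alone marks it as uninjected.

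The arrays had similar median intensities over all tested probe sets, from 65.3 to 77.5. Array titles carry letters whose meaning the labels do not give, and arrays that share a letter resembled each other more than arrays that share a replicate number. Vegetal replicate 2, neurula replicate 2, Cerberus-Short replicate 2 and both arrays with the letter J (control replicate 7 and Mixer replicate 2) had a log2 difference between the 3′ and 5′ beta-actin probe sets above 0, from 0.38 to 1.70, against -3.71 to -0.39 on the other 26 arrays. For GAPDH the same difference ran from 2.75 to 3.90 on those arrays and from 0.92 to 3.44 on the other 26, with overlap. The part of these differences in the results was not tested. In whole embryos and explants, fewer cells of a type and less RNA per cell cannot be told apart.

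Values that chose the members are a description and carry no test. The difference between cap and vegetal means ran from 1.52 to 5.74 with a median of 2.28 on the log2 scale, and it reached 8-fold for 39 members and 16-fold for 16. Every cap array lay above every vegetal array for 158 of the 161 (19.9% of all tested probe sets). The egg mean lay below the stage 11 mean by a median of 2.29, at least 4-fold below for 95 members and at least 16-fold below for 22. Every stage 11 array lay above every egg array for 144 members (14.3% of all tested). The vegetal explants were not at egg level for most of them, since the vegetal mean exceeded the egg mean for 123 members and every vegetal array lay above every egg array for 88 (54.7%; 27.9% of all tested). The members were chosen for a low egg level, so nothing is read from that difference. The whole gastrula lay between its parts for 150 members, with a mean at or above that of the cap for 7 and at or below that of the vegetal explants for 4.

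**Figure D1:**
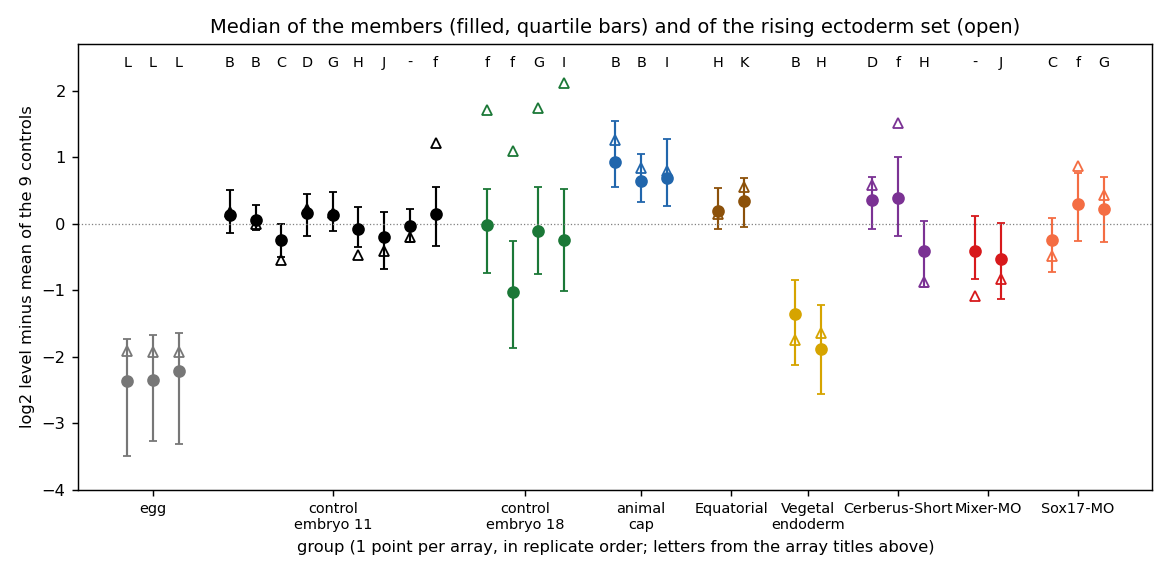
Median log2 level of the 161 members on each of the 31 arrays, relative to the mean of the 9 stage 11 controls (filled points, bars from the lower to the upper quartile over members), with the median of the 90 zygotic ectoderm probe sets that rose to the neurula (open triangles). The egg and vegetal arrays sit lowest and the caps highest by construction, 1 of 4 neurula arrays sits at -1.03, and both Mixer arrays sit below all 9 controls.

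The thresholds cut through a continuous range. At the cap limit, Xl.7004.1.A1_at (1.52) and Xl.9218.1.A1_at (1.52) lay just inside, and Xl.2256.1.S1_at (1.48) and Xl.8334.1.S1_at (1.47) just outside. At the egg limit, Xl.24732.1.S1_at (-1.03) and Xl.16056.1.A1_at (-1.03) lay inside, and Xl.5502.1.S1_at (-0.97) and Xl.22852.1.A1_at (-0.97) outside. At the neurula limit, Xl.475.1.S1_s_at (0.74) and Xl.8949.1.S1_at (0.73) lay inside, and Xl.23146.1.S1_s_at (0.78) and Xl.5611.1.S1_at (0.78) outside.

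The member with the largest cap over vegetal difference was Xl.838.1.S1_at. Its intensity was 1257, 1112 and 653 in the 3 caps, 14.5 and 22.9 in the vegetal explants, and 8.91, 8.31 and 7.38 in the eggs. Equatorial explants gave 421 and 565, the 9 controls ran from 221 to 459 with a median of 251, and the 4 neurulae from 218 to 465. All 3 caps were above every egg, every control embryo and every other explant, by 53.3-fold over the vegetal mean, and the neurulae overlapped the gastrulae. Cerberus-Short replicates 1 and 2 gave 597 and 655, above all 9 controls, and replicate 3 gave 75.01, below all of them. The probe set falls outside the rule when group medians replace means, and also, with Xl.4290.1.S1_at and Xl.5408.1.A1_at described next, when ambiguous intensities are read by the median of their row. That reading turns low egg values of these 3 into values 1000 times higher, although each has at least 1 egg array whose written form settles it as low.

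Xl.139.1.S1_at had the next largest cap difference (28.3-fold) and a different course. Its caps gave 2250, 1146 and 1395 and its vegetal explants 66.3 and 44.2. The equatorial values of 223 and 170 were far below the caps, unlike those of Xl.838.1.S1_at. The 9 controls ran from 173 to 504, and the neurulae gave 27.5, 18.9, 23.1 and 23.0, with no overlap and 10.9-fold below the gastrula mean. Xl.13681.1.A1_at (26.6-fold), Xl.4290.1.S1_at (26.5-fold), Xl.5408.1.A1_at (24.5-fold) and Xl.24221.1.S1_s_at (21.5-fold) came next, in an order that depends on how low intensities are treated. The vegetal values of Xl.13681.1.A1_at were 5.42 and 15.3, close to the lowest intensity of the data set (3.52), and with 16 added to every intensity its fold was 9.99, rank 18 among the members. On that scale Xl.838.1.S1_at (28.7-fold), Xl.139.1.S1_at (22.0-fold) and Xl.24221.1.S1_s_at (19.6-fold) ranked highest. The 4 probe sets after Xl.139.1.S1_at had equatorial means between the vegetal and the cap mean and neurula means within 1.27-fold of the gastrula mean. Their single neurula arrays ran from 65.2 to 162, 74.8 to 1017, 107 to 362 and 259 to 3680 in that order, always lowest on replicate 2. Without that array Xl.24221.1.S1_s_at fell outside the rule.

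Membership leaned on single explant arrays for some probe sets. Cap replicate 3 (letter I) exceeded caps 1 and 2 (letter B) by 4-fold or more for 4 members. For Xl.8949.1.S1_at the caps gave 230, 613 and 5997, and for Xl.21079.1.S1_at 169, 190 and 1578. Without cap replicate 3 both fell outside the rule. Replicate 3 lay 4-fold or more below both others for 3 members. Leaving out vegetal replicate 1 gave 202 members and leaving out vegetal replicate 2 gave 141, of which 149 and 126 were among the 161. Vegetal replicate 2 had the highest beta-actin difference of all arrays (1.70, against -1.50 on vegetal replicate 1). Its GAPDH difference was 2.75, against 2.39 on vegetal replicate 1. The part of either difference here was not tested.

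From gastrula to neurula the members spread widely within the limit of the rule, from -6.15 to 0.74 with a median of -0.33. The stage 18 mean lay at least 2-fold below the stage 11 mean for 38 members (23.6%), at least 4-fold below for 11, less than 2-fold below for 62, and at or above it for 61. Every neurula array lay below every gastrula array for 26 members (16.1%; 14.1% of all tested) and above for 1 (12.1% of all tested), where the rule bars large rises. All 4 neurula arrays lay above all 3 egg arrays for 122 members (75.8%; 25.1% of all tested) and below them for 2 (28.6% of all tested), a split which the low egg level asked by the rule favours.

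The largest fall belonged to Xl.1289.1.S1_at. It was present in the egg at 777, 856 and 776, ran from 894 to 2549 with a median of 1998 in the 9 gastrulae, and gave 46.5, 36.8, 21.5 and 14.1 in the neurulae. The neurula level was 70.8-fold below that of the gastrula and also below that of the egg. Xl.3326.2.S1_a_at had a similar course, with 293, 334 and 294 in the egg, 2164 to 3832 in the gastrulae, and 242, 23.9, 84.0 and 34.97 in the neurulae (51.3-fold below the gastrula). Its 3 caps agreed closely, at 5572, 5517 and 5619. Xl.1047.1.S1_at (13.7-fold) was low in the egg at 16.6, 17.4 and 17.0, reached 264 to 452 in the gastrulae, and was back at 20.8, 33.9, 19.4 and 27.8 in the neurulae. All 3 were highest in the gastrula among the 3 stages, with no overlap between gastrula and neurula arrays. The rise from the egg differed, since Xl.1289.1.S1_at already had a geometric mean of 802 in the egg, against 1900 in the gastrula.

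At the other end, Xl.475.1.S1_s_at gave 314, 198, 337 and 341 in the neurulae against 117 to 255 in the gastrulae, a mean difference of 1.68-fold. Neurula replicates 1, 3 and 4 exceeded all 9 gastrulae and replicate 2 did not. That array stood apart for the members in general. Their median difference from the gastrula mean was -1.03 on neurula replicate 2, against -0.02, -0.11 and -0.25 on replicates 1, 3 and 4, while the median of all tested probe sets was between -0.09 and 0.06 on the 4 arrays. It was the lowest of the 4 arrays for 113 members (70.2%, against 36.1% of all tested probe sets). Without it the rule gave 141 members, all among the 161, so 20 members, Xl.475.1.S1_s_at and Xl.8949.1.S1_at among them, owed their place to this array. The 2 neurula arrays with the letter f, replicates 1 and 2, differed from each other in this respect. The beta-actin difference described above was 0.38 on replicate 2, against -2.45 to -2.03 on replicates 1, 3 and 4. The GAPDH difference did not set replicate 2 apart in this way, at 3.60, against 3.38, 3.44 and 1.84 on replicates 1, 3 and 4. The part of either difference in the low values was not tested.

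The equatorial explants did not enter the rule. The equatorial position used here is 0 at the vegetal mean and 1 at the cap mean of a probe set, so it shares both of those groups with the rule and is given without a test. Its median over the members was 0.82, with quartiles of 0.64 and 0.95. The position was 1 or more for 25 members, from 0.5 to 1 for 115, from 0 to 0.5 for 15 and under 0 for 6. The share at 0.5 or more was 87.0%, and 93.3% of the 90 probe sets that rose to the neurula. Both equatorial arrays lay above both vegetal arrays for 138 members (85.7%; 20.0% of all tested probe sets) and below them for 3 (33.8% of all tested). They lay below all 3 caps for 64 members (39.8%; 15.5% of all tested) and above all 3 for 4 (14.4% of all tested). Against the 9 whole gastrulae, they lay above every control for 20 members (12.4%; 1.6% of all tested) and below every control for 1 (1.85% of all tested). The caps lay above every control for 44 members (27.3%; 2.09% of all tested), which the rule's cap condition favours, and below every control for 0 (2.79% of all tested).

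**Figure D2:**
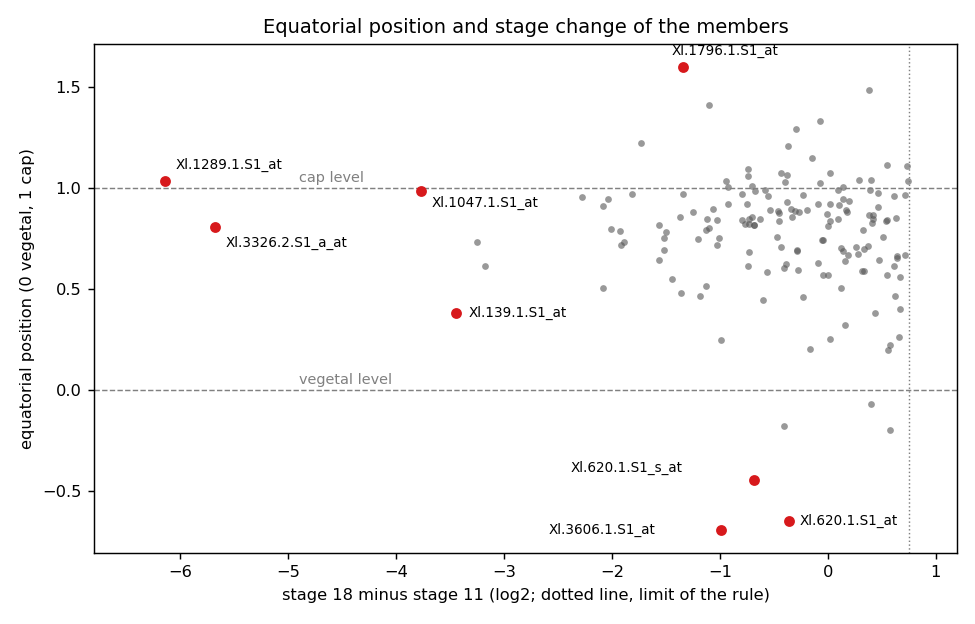
Position of the equatorial mean between the vegetal (0) and cap (1) means against the log2 change from stage 11 to stage 18, 1 point per member (n = 161). Most members lie between 0.5 and 1 whatever their stage change, and Xl.620.1.S1_at, Xl.620.1.S1_s_at and Xl.3606.1.S1_at lie below 0.

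The highest positions belonged to Xl.1796.1.S1_at (1.60), Xl.2595.1.S1_at (1.48) and Xl.3023.1.A1_at (1.41). For Xl.1796.1.S1_at the equatorial explants gave 263 and 194, the caps 104, 39.8 and 149, and the vegetal explants 20.9 and 13.2. Both equatorial arrays were above all 3 caps. For Xl.3023.1.A1_at the equatorial values of 440 and 537 were also above the caps at 221, 285 and 324 and above all 9 controls, which ran from 109 to 413. For Xl.2595.1.S1_at the equatorial values of 362 and 805 overlapped the caps, at 205, 215 and 473.

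The lowest positions belonged to Xl.3606.1.S1_at (-0.69), Xl.620.1.S1_at (-0.65) and Xl.620.1.S1_s_at (-0.45). In these 3 the vegetal explants exceeded the equatorial ones, and the whole gastrula lay below both the caps and the vegetal explants. Xl.620.1.S1_s_at gave 2479, 2146 and 2336 in the caps, 150 and 261 in the equatorial explants, 626 and 285 in the vegetal explants and 178 to 450 in the 9 controls. Xl.620.1.S1_at gave 185, 159 and 128 in the caps, 11.4 and 13.2 in the equatorial explants, 40.1 and 27.8 in the vegetal explants and 12.1 to 22.1 in the controls. The 2 probe sets carry the same cluster number and differ in level but not in the order of these groups. Xl.3606.1.S1_at gave 263, 125 and 173 in the caps, 14.6 and 18.8 in the equatorial explants, 56.5 and 33.8 in the vegetal explants and 19.4 to 39.1 in the controls. For Xl.620.1.S1_at both vegetal arrays lay above all 9 controls. Its egg values of 4.76, 4.70 and 4.44 also lay close to that lowest intensity, so its folds depend on how low intensities are treated, and with 16 added to every intensity it fell outside the rule.

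In the injected gastrulae, comparisons with the 9 controls reuse arrays that chose the members. The mean differences among injected groups do not, but every p rests on a spread estimated from all 31 arrays. Each comparison was tested with limma across all 15469 probe sets. A member was called where its p, adjusted by Benjamini-Hochberg over all of them, was under 0.05. The comparisons with controls share those controls, and the comparisons among injected groups share groups with each other.

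After Mixer morpholino injection most members were lower than in controls, but none individually passed the test. The median difference was -0.50, and 122 of 161 members (75.8%; 51.2% of all tested) lay below 0. The median was -0.93 for the 90 rising zygotic ectoderm probe sets and -0.01 for all tested probe sets. For the 669 cap-enriched probe sets that did not meet the egg condition it was -0.51, with 89.4% of them below 0. Called counts by limma were 0 lower (0.0129% of all tested) and 0 higher (0.0129% of all tested), with a lowest adjusted p of 0.0768. At an unadjusted p under 0.05, 33 members were lower (2.95% of all tested) and 1 was higher (5.15% of all tested). Both Mixer arrays lay below all 9 controls for 28 members (17.4%; 2.42% of all tested) and above all for 2 (2.73% of all tested). The differences of those 28 ran from -2.98 to -0.41 with a median of -0.99.

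The 2 Mixer arrays were alike in the members' median, at -0.41 and -0.53 relative to the control mean, where the controls ran from -0.24 to 0.16. Mixer replicate 2 shares the letter J with control replicate 7, and set against that array alone its members' median was -0.22, with 76.4% of members lower (45.1% of all tested). Mixer replicate 1 and control replicate 8 have titles without a letter and are no known pair. The median between them was -0.40, with 74.5% of members lower (44.9% of all tested). The 38 members that were at least 2-fold lower in the neurula had a median Mixer difference of 0.01, with 19 of 38 below 0, against -0.61 for the other 123, with 103 below 0. Both the stage change and the Mixer difference are taken from the same 9 controls.

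Xl.13110.1.A1_at had the lowest p among the members in the Mixer comparison. It gave 21.5 and 28.4 in the Mixer arrays and 61.8 to 225 with a median of 99.6 in the 9 controls, with no overlap. The difference was -2.05 ± 0.43 (SE; 4.14-fold; adjusted p = 0.0768, limma), and within the letter J it was 28.4 against 61.8, or 2.17-fold. It falls outside the rule without vegetal replicate 2. Xl.4624.1.A1_a_at gave 206 and 321 against 328 to 942 in the controls, again without overlap, with a difference of -1.33 ± 0.35 (SE; adjusted p = 0.264, limma). Within the letter J its values were 321 and 328, a ratio of 1.02, so its separation from the controls rests on arrays of other titles.

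**Figure D3:**
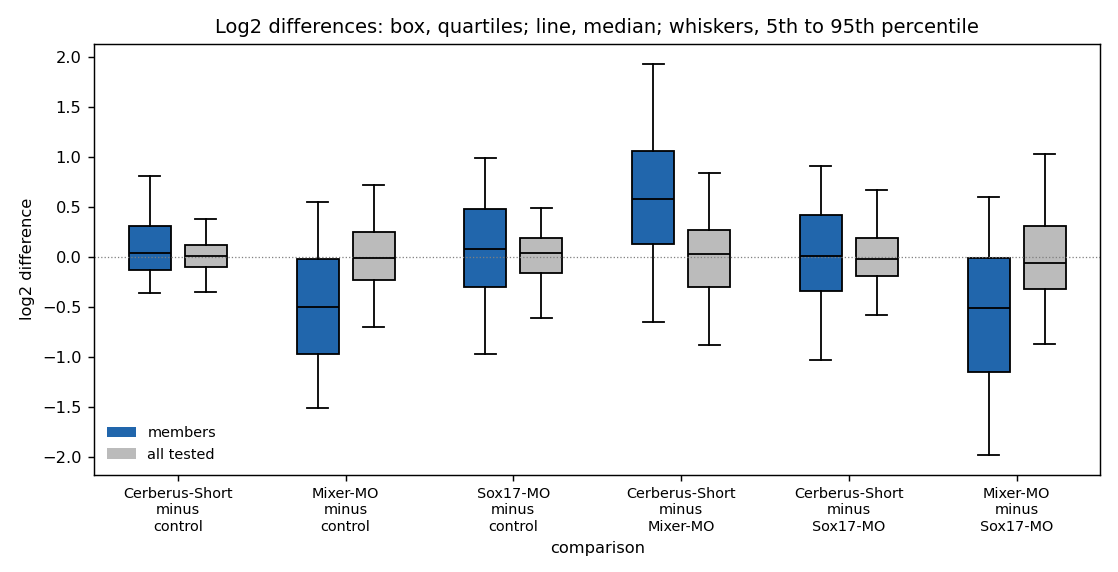
Log2 differences of the 161 members (blue) and of all 15469 tested probe sets (grey) in 6 comparisons of stage 11 embryos; boxes span the quartiles, lines mark medians and whiskers run from the 5th to the 95th percentile. The members' box lies below 0 where Mixer-MO is compared with controls or with Sox17-MO, and above 0 for Cerberus-Short minus Mixer-MO.

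After Sox17 morpholino injection the members were not shifted as a body, and 4 of them were called. The median difference was 0.08 (all tested, 0.04). The arrays disagreed: the members' median relative to the control mean was -0.25 on replicate 1, 0.29 on replicate 2 and 0.22 on replicate 3. Against the control of the same letter the medians were -0.04 (C), 0.17 (f) and 0.01 (G). Called counts were 1 lower (0.685% of all tested) and 3 higher (0.259% of all tested), and at an unadjusted p under 0.05 they were 11 lower (5.38% of all tested) and 12 higher (2.81% of all tested). All 3 Sox17 arrays lay above all 9 controls for 5 members (0.944% of all tested) and below all for 4 (2.0% of all tested).

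Xl.620.1.S1_at rose after Sox17 morpholino injection. Its intensities were 62.9, 105 and 99.7 in the Sox17 arrays against 12.1 to 22.1 with a median of 19.3 in the controls, a difference of 2.27 ± 0.42 (SE; 4.82-fold; adjusted p = 0.00505, limma). The groups did not overlap, and the rise within the 3 letter pairs was 2.90-fold (C), 5.99-fold (f) and 5.63-fold (G). Its companion Xl.620.1.S1_s_at gave 1033, 1086 and 1541 against 178 to 450, also without overlap, and missed the threshold (difference 1.82 ± 0.46, SE; adjusted p = 0.0583, limma). Xl.3606.1.S1_at rose as well, with 54.1, 128 and 102 against 19.4 to 39.1 and a difference of 1.75 ± 0.42 (SE; 3.37-fold; adjusted p = 0.0406, limma). It rose within each pair, by 2.41-fold (C), 4.32-fold (f) and 4.66-fold (G). Xl.620.1.S1_at, its companion and Xl.3606.1.S1_at are the 3 members with the lowest equatorial positions.

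Xl.21079.1.S1_at rose most, from controls at 99.5 to 471 with a median of 203 to Sox17 values of 1766, 664 and 1755, with no overlap. The difference was 2.49 ± 0.57 (SE; 5.62-fold; adjusted p = 0.0267, limma), and within the letter pairs it was 8.69-fold (C), 6.68-fold (f) and 13.2-fold (G). Its level followed the letter in both groups, lowest in the f arrays at 99.5 and 664. Its place among the members is less sure, since it falls outside the rule without cap replicate 3 and also with group medians. Xl.21086.1.S1_at fell, from controls at 69.7 to 300.4 to Sox17 values of 78.3, 55.4 and 57.98, a difference of -1.53 ± 0.37 (SE; 2.88-fold; adjusted p = 0.0418, limma). Here the groups overlapped, since the f control at 69.7 lay below Sox17 replicate 1, and within pairs the ratio was 2.26-fold (C), 1.26-fold (f) and 3.57-fold (G).

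The calls moved with single arrays and with settings, over the members and over all tested probe sets alike. With both directions counted together, 4 members were called against 0.944% of all tested. The count was 0 without Sox17 replicate 3 (0.103% of all tested under the same setting) and 1 without Sox17 replicate 2 (0.291%). It was 7 without control replicate 9 (0.918%), 2 without control replicate 5 (0.834%) and 2 without control replicate 8 (0.737%). It was 7 with a pseudocount of 16 (0.963%), 9 with letters as a random block (1.89%), 8 with the compared groups alone (0.782%) and 13 with array weights (2.77%). With letters as a fixed block the adjusted p by limma was 0.0514 for Xl.620.1.S1_at (5.6e-05 to 0.126 over its alternatives), 0.196 for Xl.3606.1.S1_at (0.000982 to 0.365) and 0.212 for Xl.21086.1.S1_at (0.00147 to 0.313), and Xl.21079.1.S1_at stayed called.

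**Figure D4:**
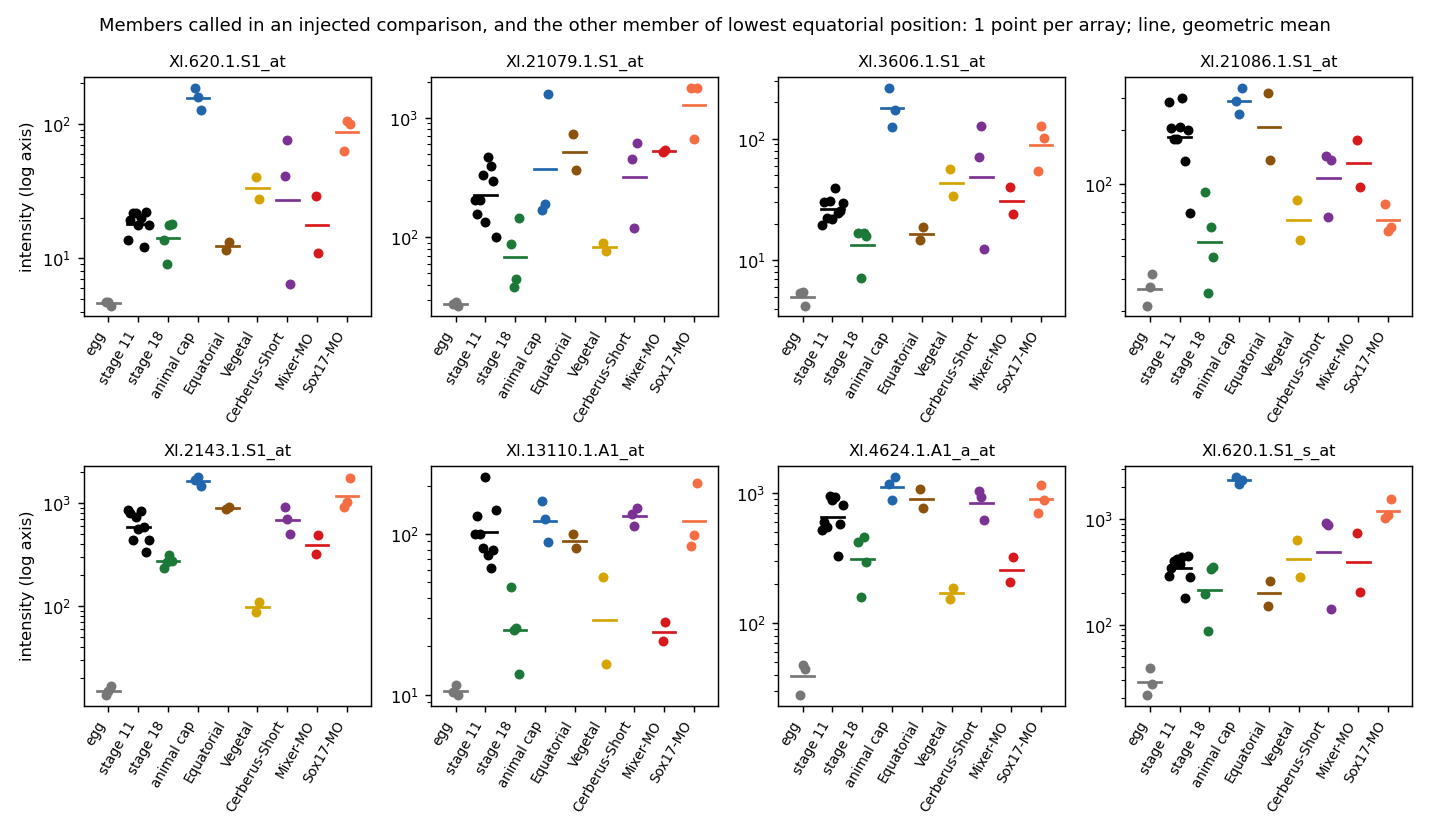
Intensity on a log axis of the 7 members called in an injected comparison and of Xl.620.1.S1_s_at (last panel), in all 9 groups, 1 point per array, with the geometric mean of each group as a line. The Sox17-MO points of Xl.620.1.S1_at, Xl.3606.1.S1_at and Xl.21079.1.S1_at lie above every stage 11 control, and the Mixer-MO points of Xl.13110.1.A1_at lie below every one.

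After Cerberus-Short injection, which blocks Nodal, the members showed no common shift. The median difference was 0.04 (all tested, 0.01). Called counts by limma were 0 lower (0.317% of all tested) and 0 higher (0.00646% of all tested). At an unadjusted p under 0.05, 2 members were lower (1.29% of all tested) and 3 higher (0.808% of all tested). The 3 Cerberus-Short arrays lay together above or below all 9 controls for 0 members (0.0582% and 0.491% of all tested). They disagreed among themselves: the members' median relative to the control mean was 0.35 on replicate 1, 0.38 on replicate 2 and -0.41 on replicate 3. Against the control of the same letter the medians were 0.20 (D), 0.23 (f) and -0.32 (H). A list of 176 zygotic vegetal probe sets had a median of -0.98, with 48 called lower. It was chosen by a vegetal mean at least 1.5 above the cap mean and the same egg condition, without a neurula condition.

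Xl.620.1.S1_at shows that disagreement on a single probe set. Cerberus-Short replicates 1 and 2 gave 41.1 and 75.3, above all 9 controls, and replicate 3 gave 6.44, below all of them. Xl.3606.1.S1_at gave 71.3 and 127 against 12.4, and Xl.620.1.S1_s_at gave 908 and 880 against 140, in the same order. The 2 members with the lowest p in this comparison were Xl.9971.1.A1_at (84.2, 101 and 38.1 against 82.8 to 165 in the controls; adjusted p = 0.769, limma) and Xl.10855.1.A1_at (125, 198 and 68.6 against 44.9 to 110; adjusted p = 1.0, limma). Both overlapped the controls. Without Cerberus-Short replicate 3 the count of members called against controls was 2 (0.194% of all tested under that setting).

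Direct comparisons among injected groups take neither mean from arrays that chose the members. Their SE and p do draw on those arrays, since the fit shares its spread over all 31 arrays. With the compared groups only, 0 members and 0.0% of all tested were called in each direct comparison. The Mixer arrays share no title letter with the Sox17 or the Cerberus-Short arrays. In these direct comparisons the Mixer injection and the letter cannot be told apart. Between Mixer and Sox17 morpholino embryos the members' median difference was -0.50 (all tested, -0.06), with 122 of 161 below 0 (75.8%; 55.1% of all tested). Of the 669 cap-enriched probe sets that did not meet the egg condition, 89.2% lay below 0. Called counts were 3 lower in Mixer embryos (0.123% of all tested) and 0 higher (0.64% of all tested), by limma. At an unadjusted p under 0.05, 39 were lower (3.92% of all tested) and 5 higher (9.35% of all tested). Both Mixer arrays lay below all 3 Sox17 arrays for 51 members (31.7%; 14.0% of all tested) and above for 11 (16.5% of all tested).

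The 3 called members were Xl.13110.1.A1_at, Xl.4624.1.A1_a_at and Xl.2143.1.S1_at. Xl.13110.1.A1_at gave 21.5 and 28.4 in Mixer embryos and 84.5, 98.04 and 209 in Sox17 embryos, a difference of -2.28 ± 0.50 (SE; 4.86-fold; adjusted p = 0.0305, limma). Xl.4624.1.A1_a_at gave 206 and 321 against 692, 1141 and 881, a difference of -1.79 ± 0.41 (SE; 3.45-fold; adjusted p = 0.0369, limma). None of these arrays overlapped between groups. Xl.2143.1.S1_at gave 322 and 485 against 910, 1029 and 1736, a difference of -1.57 ± 0.34 (SE; 2.97-fold; adjusted p = 0.0280, limma). Its controls ran from 337 to 857, so its Sox17 arrays lay above all of them (adjusted p = 0.0501 against controls, limma) while its Mixer arrays overlapped them in part. With only 2 Mixer arrays, a fit without either of them keeps a single Mixer array and takes its spread from the other groups. Such fits are among the alternatives below, but no call is read from them. With letters as a fixed block the Mixer side also rests on replicate 2 alone, because replicate 1 has no letter. Under that setting the Mixer minus Sox17 difference of Xl.4624.1.A1_a_at was -0.26. With letters as a random block Xl.13110.1.A1_at (adjusted p = 0.0914, limma) and Xl.4624.1.A1_a_at (adjusted p = 0.166, limma) missed the threshold and Xl.2143.1.S1_at passed it (adjusted p = 0.0228, limma); over all alternatives the adjusted p of the 3 ran from 0.0150, 0.0176 and 0.0170 up to 1.0.

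Between Cerberus-Short and Mixer embryos the median difference was 0.58 (all tested, 0.03), with 129 of 161 members above 0. The share below 0 was 19.9% for the members and 47.0% for all tested. It was 12.6% for the 669 cap-enriched probe sets that did not meet the egg condition. Called counts were 1 higher in Cerberus-Short embryos (0.0259% of all tested) and 0 lower (0.187% of all tested), by limma. At an unadjusted p under 0.05, 33 were higher (3.43% of all tested) and 2 lower (6.17% of all tested). The called member was again Xl.13110.1.A1_at, at 133, 112 and 144 in Cerberus-Short embryos against the same 2 Mixer values, a difference of 2.38 ± 0.50 (SE; 5.22-fold; adjusted p = 0.0347, limma). Its 3 Cerberus-Short arrays lay close together, including replicate 3. The call was lost in 11 of 17 alternatives, some of which rest on 1 Mixer array. Letters as a random block were among the 11 (difference 2.22; adjusted p = 0.0518, limma). With letters as a fixed block, which rests on Mixer replicate 2 alone, the difference was 1.57. All 3 Cerberus-Short arrays lay above both Mixer arrays for 30 members (18.6%; 8.66% of all tested) and below both for 6 (3.73%; 10.8% of all tested). Without Cerberus-Short replicate 3 the count of called members was 11, and 1.15% of all tested were then called, against 0.213% with all arrays.

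Between Cerberus-Short and Sox17 embryos the median difference was 0.01 (all tested, -0.02). Called counts by limma were 0 lower (0.246% of all tested) and 0 higher (0.233% of all tested), and at an unadjusted p under 0.05 they were 9 lower (2.77% of all tested) and 7 higher (3.98% of all tested). The 3 Cerberus-Short arrays lay below the 3 Sox17 arrays for 4 members (4.22% of all tested) and above them for 7 (4.59% of all tested). Xl.620.1.S1_at had the lowest p, with a difference of -1.68 ± 0.51 (SE; adjusted p = 0.214, limma). Its Cerberus-Short values of 41.1 and 6.44 lay below all 3 Sox17 values, and that of 75.3 lay among them. Xl.21079.1.S1_at gave 451, 119 and 609 against 1766, 664 and 1755, without overlap, and also missed the threshold (difference -1.99 ± 0.70, SE; adjusted p = 0.352, limma). It passed the threshold with letters as a fixed block (-2.65; adjusted p = 0.0425, limma) or as a random block (-2.38; adjusted p = 0.0261, limma), with adjusted p from 0.0261 to 1.0 over its alternatives. Xl.620.1.S1_at passed only without Cerberus-Short replicate 2 (adjusted p = 0.0232, limma; highest over its alternatives, 1.0).

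Members differed greatly in how steady they were across the 9 control gastrulae. The SD of log2 intensity had a median of 0.46 over the members, against 0.34 over all tested probe sets and 0.65 over the 90 that rose to the neurula. It exceeded 1 for 15 members (9.32%; 1.98% of all tested). The steadiest was Xl.23.1.S1_at, with controls from 2773 to 3564 (SD 0.11), and it was also among the 3 highest in level, with Xl.7977.1.S1_at and Xl.3326.2.S1_a_at. The lowest in level were Xl.620.1.S1_at, Xl.17176.1.A1_at and Xl.3606.1.S1_at. Of the 161, 150 lay above the lowest 40% of all tested probe sets in mean level.

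The 6 members with the largest SD were picked out after their values were seen. Xl.4965.1.S1_at (SD 2.11) ran from 31.1 to 2495 in the controls, and its level went with the letter in the array title. It gave 45.5 in the control and 52.0 in the Sox17 embryos with the letter C, 67.6 in the control and 68.5 in the Cerberus-Short embryos with D, and 31.1 in the control and 34.1 in the Mixer embryos with J. With the letter f it gave 2495 in the control, 2909 in the Cerberus-Short and 1973 in the Sox17 embryos. The Sox17 and control embryos with G gave 531 and 539. The Cerberus-Short and control embryos with H lay further apart, at 617 and 362 (1.70-fold), and the 2 controls with B gave 541 and 312. Injected and control embryos of 1 letter lay within 1.265-fold of each other for C, D, f, G and J and not for H.

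Xl.23988.1.S1_at (SD 1.80) also went with the letter, but its lowest letters stood in another order. Its J control gave 74.3, above its D control at 58.5 and its C control at 55.9. It gave 2130, 2701 and 2400 in the f arrays of control, Cerberus-Short and Sox17 embryos, 513 and 640 in the G arrays of control and Sox17 embryos, and 55.9 and 81.9 in the C arrays. Xl.8124.1.S1_at (SD 1.51) gave 3510, 3341 and 2936 in the f arrays and 149 and 136 in the C arrays. All 3 were high in every cap, at 1420 to 4239 for Xl.4965.1.S1_at, 1039 to 2368 for Xl.23988.1.S1_at and 3149 to 4800 for Xl.8124.1.S1_at. Among the neurulae, replicate 1 (f) gave 1692, 1964 and 1350 for the 3 in that order, and replicate 2, with the same letter, gave 89.9, 67.8 and 132. Mixer embryos of Xl.8124.1.S1_at gave 36.9 and 79.0, below all 9 controls at 143 to 3510, with the largest Mixer difference of any member whose Mixer arrays lay below all controls (-2.98 ± 1.14, SE; adjusted p = 0.521, limma). Within the letter J its values were 79.0 and 143, or 1.815-fold.

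**Figure D5:**
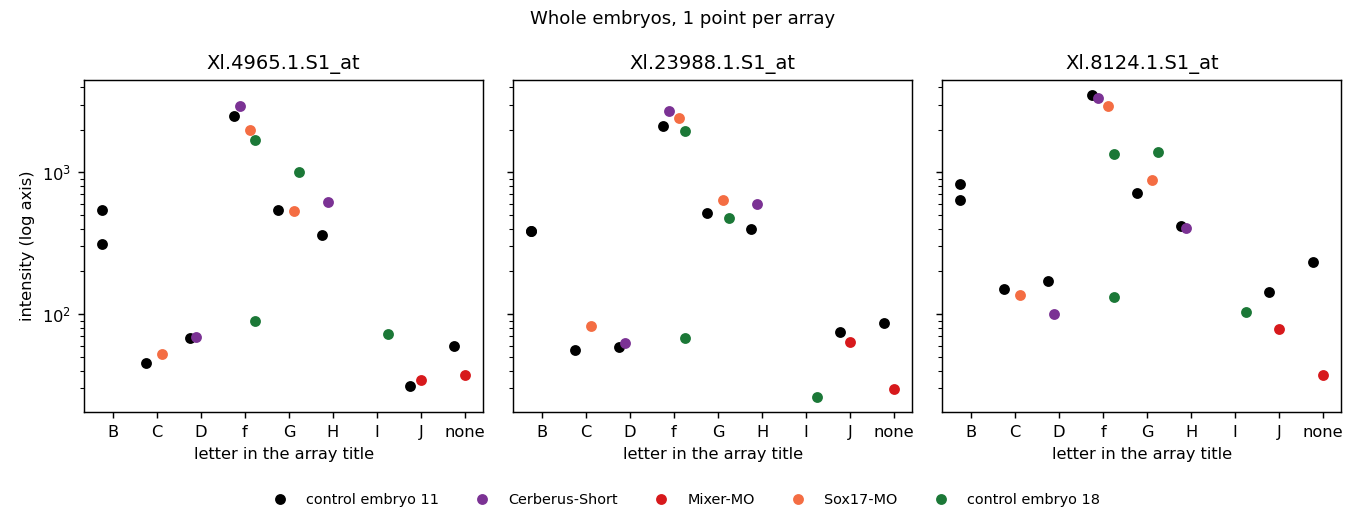
Intensity on a log axis of Xl.4965.1.S1_at, Xl.23988.1.S1_at and Xl.8124.1.S1_at in whole embryos, by the letter in the array title, 1 point per array. Stage 11 arrays of 1 letter lie within 1.815-fold of each other for every shared letter, whatever the injection, and the widest ratio is that of J. The stage 11 f arrays are highest, and the stage 18 arrays with the letter f are far apart.

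Among the other 3 of the 6, the pair Xl.23927.2.A1_at and Xl.23927.2.A1_x_at also went with the letter in part. Injected and control embryos of 1 letter lay within 1.202-fold (first) and 1.126-fold (second) for C, f, G, H and J. For D the ratios were 2.02-fold and 1.99-fold. The 2 controls with B lay apart, at 144 and 18.8 for the first and 327 and 48.1 for the second. Xl.23927.2.A1_at (SD 1.80) and Xl.23927.2.A1_x_at (SD 1.64), which share a cluster number, gave high and low values in the caps (204, 22.7 and 168 for the first and 395, 49.8 and 384 for the second) and in the eggs (66.9, 10.2 and 10.8, and 156, 22.7 and 23.4). The pair was low on the same arrays, cap replicate 2 and egg replicates 2 and 3. Both of the pair fell outside the rule without neurula replicate 2, and also without control replicate 1, 5, 8 or 9. Xl.685.1.S1_at (SD 1.53) gave 23.3 in control replicate 6 and 122 to 576 in the other 8 controls, and its eggs gave 19.1, 332 and 239, so that 1 egg array was far below the others. It fell outside the rule without that array (egg replicate 1), and also without vegetal replicate 2 or with group medians.

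The identifiers show how far members repeat each other. The 161 identifiers hold 151 distinct cluster numbers, and 9 of those numbers cover 19 members, with at most 3 in 1 cluster (those of Xl.23927.2.A1_at). Probe sets of 1 cluster are not independent measurements of separate transcripts. The array's suffixes for probe sets that may match several transcripts (_a, _s or _x) were carried by 14.3% of members and 9.22% of all tested probe sets. An S in the identifier was carried by 59.6% of members and 45.2% of all tested.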

How the data were processed

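Linear intensities of 31 Affymetrix arrays, 1 per probe set, were deposited. The authors made them by RMA, per the submitters' processing notes, in GeneSpring 7.1 after scaling to a target of 1500, per the deposited checklist. Intensities from 1000 upward have a digit separator written like a decimal point, and these (3.73% of values) were multiplied by 1000: those below 3.5 or from 10 with 3 decimals, and those from 3.5 to 10 with 3 decimals where this brought them nearer to the settled values of their probe set. Leaving out 120 control and 22 undecided probe sets, 15469 were tested.

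The fit used limma 3.58.1 (R 4.3.3) on log2 values, with 9 group means over 31 arrays, 22 residual degrees of freedom, two-sided p and Benjamini-Hochberg adjustment (threshold 0.05). On simulated data with independent noise, it called 14% to 55% of 2-fold changes and 62% to 87% of 3-fold changes, depending on the comparison. Real arrays of the same title letter were correlated, which the simulation left out, so these shares need not hold for them. Other values came from Python 3.11.15. Signal over background was not analysed here, and the number of arrays limits precision.

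Members, lists and named probe sets were chosen with earlier results of these data known. Named are the 6 largest cap differences, those nearest each threshold, called members (where fewer than 2, the 2 with the lowest p), the 3 highest and 3 lowest in equatorial position, stage change and control level, and, added after values were seen, the 6 with the largest SD. Gene and marker lists could not be used without gene names. Replicate numbers did not pair samples: deviations correlated above 0.1 in 9 of 15 equal-numbered pairs (-0.48 to 0.67). They did so in all 8 pairs of equal title letter (0.52 to 0.85). Cerberus-Short replicate 2 and Sox17 replicate 2 (0.67) share the letter f and are counted in both sets. The next highest equal-numbered value was 0.45. Alternatives changed the normalization, pseudocount, filter, blocks, arrays, weights and variance model.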

Additional observations from a re-analysis of the deposited data

Results flagged for a closer look

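Some values stood apart from the rest of their group: the gap to the nearest array was large against the group's range (Dixon's criterion at the 95% level). Chance flags about 1 in 20 unselected groups, and 7 of 76 groups were flagged. Many of these probe sets were named for their control or neurula values, so that rate does not apply and nothing is read from the count. Control replicate 9 was low for Xl.1289.1.S1_at (log2 intensity 9.80) and for Xl.3326.2.S1_a_at (11.08), and control replicate 6 was low for Xl.685.1.S1_at (4.54). Neurula replicate 2 was low for Xl.5408.1.A1_at (6.74), Xl.475.1.S1_s_at (7.63), Xl.3606.1.S1_at (2.83) and Xl.23927.2.A1_x_at (5.35), so that 4 of the 7 values lay on that array.

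Differences between injected groups passed a test of the difference itself for 3 members. Xl.13110.1.A1_at differed by 2.38 between Cerberus-Short and Mixer-MO embryos and by -2.28 between Mixer-MO and Sox17-MO embryos. Xl.2143.1.S1_at differed by -1.57 and Xl.4624.1.A1_a_at by -1.79 between Mixer-MO and Sox17-MO embryos. Each difference involves the Mixer-MO arrays, which share no title letter with the other injected groups. In the direct differences, letter and injection therefore cannot be told apart. Within J, Mixer-MO replicate 2 was lower than the control by 2.17-fold for Xl.13110.1.A1_at, 1.215-fold for Xl.2143.1.S1_at and 1.02-fold for Xl.4624.1.A1_a_at. Within C, f and G, Sox17-MO was higher for Xl.2143.1.S1_at (2.09-, 2.36- and 3.11-fold) and Xl.4624.1.A1_a_at (1.265-, 1.41- and 1.00-fold). It was lower for Xl.13110.1.A1_at (1.19-, 1.44- and 1.08-fold).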

How the results depend on the processing

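The number of members stayed between 138 and 202 under every alternative tried, within 1.5 times the 161 reported, and no named difference reversed its sign. The median equatorial position ranged from 0.77 without cap replicate 3 to 0.87 without equatorial replicate 1. Counts of called members were small and moved under many settings, and the cause was not tested. Shares in brackets are of all tested probe sets under the same setting. Against controls, Cerberus-Short calls numbered 0 (0.323%). They ran from 0 to 2 when replicates were left out, the 2 being without Cerberus-Short replicate 3 (0.194%). Mixer calls numbered 0 (0.0259%) and ran from 0 to 1 on leaving out controls, the 1 being without control replicate 7 (0.129%). Sox17 calls numbered 4 (0.944%). They were 7 with a pseudocount of 16 (0.963%), 9 with letters as a random block (1.89%), 8 with the compared groups only (0.782%) and 13 with array weights (2.77%). On leaving out replicates they ran from 0 without Sox17 replicate 3 (0.103%) to 7 without control replicate 9 (0.918%). Cerberus-Short minus Mixer calls numbered 1 (0.213%). They were 0 with quantile normalization (0.136%), a pseudocount of 16 (0.181%) and the title letter as a random block (0.162%). They were also 0 with the compared groups only (0.0%) and with array weights (0.162%). On leaving out Cerberus-Short replicates they ran from 0 to 11, the 11 being without replicate 3 (1.15%). Cerberus-Short minus Sox17 calls numbered 0 (0.478%). They were 1 with the letter as a fixed (0.394%) or random block (1.07%) and with array weights (0.989%). On leaving out replicates they ran from 0 to 1, the 1 being without Cerberus-Short replicate 2 (0.246%). Mixer minus Sox17 calls numbered 3 (0.763%). They were 0 with the compared groups only (0.0%), 2 with quantile normalization (0.608%) and 2 with letters as a random block (0.375%). They were 4 with a pseudocount of 16 (0.821%), 4 with the lowest 40% left out (1.43%) and 9 with array weights (1.54%). Letters as a fixed block, and leaving out the J arrays or a Mixer replicate, rest on 1 Mixer array. Counts of those fits are not given for either direct comparison with Mixer. Without Sox17 replicate 1, 2 or 3 they were 6 (1.2%), 0 (0.149%) and 0 (0.123%).

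The replicate block uses numbers that do not pair the samples. With it the counts were 4 for Mixer (0.97% of all tested) and 2 for Sox17 (0.168%) against controls. For Mixer minus Sox17 the count was 7 (2.01%), and the other 3 counts did not change. Leaving out the J arrays, and reading ambiguous intensities by the row median (159 members, 157 of them shared), were chosen after seeing the data. Over all tested probe sets the calls ran from 28 to 67 (50 as reported) for Cerberus-Short, 0 to 150 (4) for Mixer and 16 to 428 (146) for Sox17 against controls, 0 to 178 (33) for Cerberus-Short minus Mixer, 0 to 165 (74) for Cerberus-Short minus Sox17, and 0 to 311 (118) for Mixer minus Sox17. The members' median Mixer difference stayed between -0.59 and -0.22. Where a group was left with 1 array, it was assumed to vary like the others.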
